A study of Mus musculus with 6 samples.

Results

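The genes described here handle iron, haem and the haemoglobin released from red cells: the ferritin subunits Fth1 and Ftl1, the importers Trf, Tfrc and Slc11a1, the exporters Slc40a1 and Cp, the iron sensor Ireb2, haptoglobin (Hp) and myoglobin (Mb). They were taken by symbol, and all 10 were found among the 25572 genes of the deposited table. Bulk RNA sequencing measured their transcripts in hind limb skeletal muscle of 3 HDCKO mice, which are Hdc-/- and lack histidine decarboxylase, the enzyme that makes histamine, and of 3 wild-type (WT) mice. All 6 mice carried the label HLI, for the hind limb ischaemia named in the series title, and muscle was taken 3 days after surgery. The sources used here name no strain, age or sex, nor the muscle or leg taken. Whether the tissue of each library was itself injured is therefore not known.

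Iron enters most cells when transferrin (Trf), the iron carrier of plasma, binds the transferrin receptor (Tfrc). Iron that is not used is stored inside ferritin, a shell of heavy (Fth1) and light (Ftl1) subunits, and leaves the cell through ferroportin (Slc40a1), helped by the copper oxidase ceruloplasmin (Cp). Iron regulatory proteins, encoded by Ireb2 and Aco1, bind a hairpin called an iron-responsive element when iron is scarce. Bound near the start of a transcript the protein blocks translation, and bound in the 3′ untranslated region of Tfrc it protects the transcript from decay. Macrophages take up dying red cells and debris, break haem down and recycle its iron, and muscle fibres hold much iron of their own in myoglobin and mitochondria.

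The hairpins are shown because 4 of the 10 genes hold a match to the element that the iron regulatory proteins are known to bind. The search was for C, 5 bases, the loop CAGTGN and 5 bases pairing with the first 5 (G-T pairs allowed), on the sense strand of the untranslated regions of GENCODE protein-coding transcripts in GRCm39. Such a match stood in a 5′ untranslated region of 47 of 21575 genes (0.218%) and in a 3′ untranslated region of 163 (0.756%). Fth1, Ftl1 and Slc40a1 each held 1 match in the 5′ region and Tfrc held 4 in the 3′ region. Of the other listed iron genes only Alas2 held any, and no match says only that these letters were not found. Each hairpin is printed 5′ to 3′ as DNA, 29 bases long, with the loop in capitals.
Fth1, chr19:9960096-9960124, plus strand: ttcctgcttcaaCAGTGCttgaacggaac
Ftl1, chr7:45109203-45109231, minus strand: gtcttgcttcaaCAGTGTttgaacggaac
Slc40a1, chr1:45964625-45964653, minus strand: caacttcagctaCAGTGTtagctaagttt
Tfrc, chr16:32450037-32450065, plus strand: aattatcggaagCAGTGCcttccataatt
Tfrc, chr16:32450416-32450444, plus strand: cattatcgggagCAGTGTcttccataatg
Tfrc, chr16:32450481-32450509, plus strand: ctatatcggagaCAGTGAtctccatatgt
Tfrc, chr16:32450528-32450556, plus strand: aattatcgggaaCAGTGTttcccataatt
The ferritin hairpins were identical at 26 of 29 bases, and the Slc40a1 hairpin matched that of Fth1 at 13 of 29.

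The deposited unit is FPKM, a fragment count divided by the length of the gene and the size of the library, so that levels of different genes can be compared within a library. The depth was estimated from the step between low values at 29500000 to 37600000 fragments per library. Hdc, the targeted gene, had 1.22, 2.46 and 2.52 FPKM in HDCKO mice 1, 2 and 3, against 7.49, 7.72 and 8.17 FPKM in WT mice 1, 2 and 3. It was lower in HDCKO (log2 change -1.74, SE 0.25, limma adjusted p = 0.00334), but not absent, and the labels do not say which exons the mutant lacks. Muscle fibre markers were detected in every library, with 12 of 12 higher in HDCKO (Myh2 passed the filter on low values only through HDCKO) and a summed level of 42726 to 76746.5 FPKM in HDCKO, against 376 to 1432 FPKM in WT. All 12 neutrophil markers were lower in HDCKO, 5 of which passed the filter only through WT (33.1 to 76.8 FPKM summed, against 2512 to 14597 FPKM in WT). Macrophage and monocyte markers were lower for 7 of 12 (58.3%, against 42.6% of all genes tested). Their summed level was 292 to 2115 FPKM in HDCKO, against 2338 to 3024 FPKM in WT. The macrophage count was 3 without HDCKO mouse 2, 3 without WT mouse 1 and 2 without WT mouse 3. It was 10 without HDCKO mouse 3 or with sample weights, and 5 with median-of-ratios scaling. The fibre and neutrophil counts stayed at 12 with any library left out. In bulk muscle, fewer cells of a type and less RNA per cell cannot be told apart.

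Iron storage and haemoglobin scavenging transcripts were lower in HDCKO muscle, while the transferrin receptor and myoglobin were higher. Of the 10 genes, 2 were higher (Tfrc and Mb) and 5 lower (Fth1, Ftl1, Slc11a1, Hp and Ireb2) in HDCKO by limma on log2(FPKM + 0.5) with Benjamini-Hochberg adjustment over 13288 genes. Trf, Slc40a1 and Cp did not pass. Across the whole table tested, 17.8% of genes passed as higher and 42.6% as lower in HDCKO, or 60.4% in all, so 7 of 10 is near the background. The median log2 change was -0.79 over the 10 genes and -0.50 over all genes tested. The groups did not overlap for 8 of the 10, with 2 higher and 6 lower, where 21.2% and 51.4% of all genes tested did the same, or 72.6% in all.

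**Figure D1:**
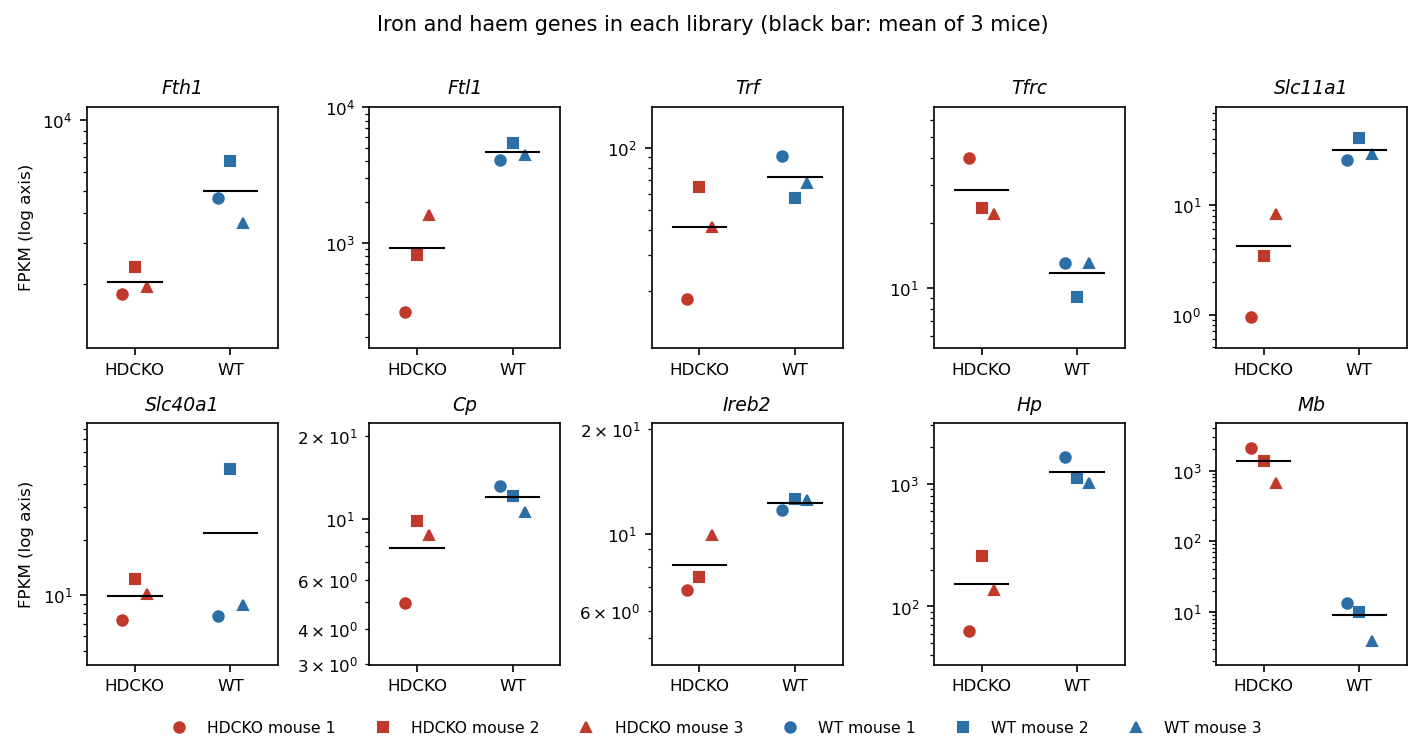
FPKM of each gene on a log axis in the 3 HDCKO libraries (red, left) and the 3 WT libraries (blue, right) of each panel, with a symbol per mouse number and a black bar at the mean. The groups overlap for Trf and Slc40a1, and the WT mean of Slc40a1 is raised by WT mouse 2 at 48.6 FPKM.

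Both ferritin subunits were lower in HDCKO. Ftl1, the light subunit that favours the forming of the iron core, had 307, 808 and 1612 FPKM in HDCKO mice 1, 2 and 3, against 4058, 5449 and 4450 FPKM in WT mice 1, 2 and 3. Every HDCKO value lay below every WT value, and relative to their mean the HDCKO mice differed among themselves more than the WT mice did. The mean was 909 ± 659 FPKM in HDCKO mice and 4652 ± 717 FPKM in WT mice (SD, n = 3 per group), or 19.5% of WT, with a log2 change of -2.65 (SE 0.61, 95% interval -4.12 to -1.17, adjusted p = 0.0136). Without a filter on low values the Ftl1 call was lost (adjusted p = 0.0552). Macrophage markers summed to 292, 866 and 2115 FPKM in HDCKO mice 1, 2 and 3, against 2789, 2338 and 3024 FPKM in WT mice 1, 2 and 3. They stood in the order of Ftl1 across the HDCKO mice but not across the WT mice, where mouse 2 had the lowest sum and the highest Ftl1. Their part in the result was not tested.

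Fth1, the heavy subunit, which oxidises iron on entry into the shell, had 1812, 2373 and 1932 FPKM in HDCKO mice 1, 2 and 3. In WT mice 1, 2 and 3 it had 4642, 6670 and 3651 FPKM. The groups did not overlap, and HDCKO mice were closer together for Fth1 than for Ftl1. Fth1 averaged 2039 ± 295 FPKM in HDCKO mice and 4988 ± 1539 FPKM in WT mice (SD, n = 3 per group), with a log2 change of -1.26 (SE 0.34, 95% interval -2.08 to -0.43, adjusted p = 0.0217). That call was less firm than the one on Ftl1. The log2 change was -0.72 with median-of-ratios scaling (adjusted p = 0.103), -0.92 with fibre and mitochondrial transcripts left out of the total (adjusted p = 0.0547) and -2.29 after quantile normalization, where it passed. It missed the threshold without a filter (adjusted p = 0.317) and without HDCKO mouse 2 (0.0628), WT mouse 1 (0.0630) or WT mouse 2 (0.0822). Ferritin genes have processed pseudogenes, and the labels do not say how shared reads were assigned, so the split between gene and copies is uncertain.

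In WT muscle the ferritin subunits were among the most abundant transcripts. Fth1 ranked 2, 2 and 4 and Ftl1 ranked 4, 4 and 2 by FPKM in WT mice 1, 2 and 3. In HDCKO mice 1, 2 and 3 Fth1 ranked 24, 16 and 17 and Ftl1 ranked 150, 50 and 19. Together the subunits made up 0.466%, 0.703% and 0.836% of all FPKM in HDCKO mice 1, 2 and 3, against 2.10%, 2.89% and 2.00% in WT mice 1, 2 and 3.

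Among the importers, Tfrc moved against the ferritins. Tfrc, the receptor that takes up transferrin-bound iron, had 39.9, 23.4 and 22.0 FPKM in HDCKO mice 1, 2 and 3, against 13.0, 9.02 and 13.0 FPKM in WT mice 1, 2 and 3. All 3 HDCKO mice lay above all 3 WT mice. The mean was 28.4 ± 9.97 FPKM in HDCKO mice and 11.7 ± 2.30 FPKM in WT mice (SD, n = 3 per group), a 2.43-fold higher level with a log2 change of 1.21 (SE 0.28, 95% interval 0.54 to 1.89, adjusted p = 0.0136). Tfrc passed in the same direction in all 15 other settings tried, with a log2 change from 0.92 to 1.73. Tfrc is known to be high in dividing cells. Of 8 cycling cell markers 6 were lower in HDCKO (75.0%, against 42.6% of all genes tested). They summed to 3.14, 13.2 and 90.9 FPKM over the 8 in HDCKO mice 1, 2 and 3, against 140 to 184 FPKM in WT. The count lower was 1 without HDCKO mouse 2 or any single WT mouse, and 4 without HDCKO mouse 1. It was 8 without HDCKO mouse 3, with sample weights or with a replicate block. The part of dividing cells in the Tfrc result was not tested.

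Slc11a1 encodes a metal transporter of the phagosome membrane in macrophages and neutrophils, which moves iron out of the engulfed material. It had 0.946, 3.42 and 8.25 FPKM in HDCKO mice 1, 2 and 3, against 25.9, 40.9 and 29.6 FPKM in WT mice 1, 2 and 3. The groups were far apart, with the highest HDCKO value below the lowest WT value. The mean was 4.20 ± 3.71 FPKM in HDCKO mice and 32.2 ± 7.84 FPKM in WT mice (SD, n = 3 per group), or 13.1% of WT, with a log2 change of -3.13 (SE 0.63, adjusted p = 0.0094). Its call held in all 15 other settings tried (log2 change from -3.75 to -2.45). Slc11a1 followed the order of the summed macrophage markers among the HDCKO mice, as Ftl1 did. It was highest in WT mouse 2, which had the lowest macrophage sum of the WT mice and the highest neutrophil sum. The part of either cell type was not tested.

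Trf did not pass. It had 18.3, 64.4 and 41.1 FPKM in HDCKO mice 1, 2 and 3, against 91.5, 57.4 and 67.9 FPKM in WT mice 1, 2 and 3. The groups overlapped, since HDCKO mouse 2 lay above WT mouse 2. The means were 41.2 ± 23.0 FPKM in HDCKO mice and 72.2 ± 17.5 FPKM in WT mice (SD, n = 3 per group), and the log2 change was -0.95 (95% interval -2.07 to 0.18, adjusted p = 0.117). Transferrin is made mainly by the liver, and hepatocyte markers were low in every library, summing to 0.836 to 3.74 FPKM in HDCKO and 11.5 to 25.5 FPKM in WT over 8 markers. Of the 8, 5 averaged too low to be tested and 2 of the other 3 passed the filter only through the WT mice, so no count is read from them. Ttr, Serpina1a and Tat were at 0 in 1 HDCKO library each.

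**Figure D2:**
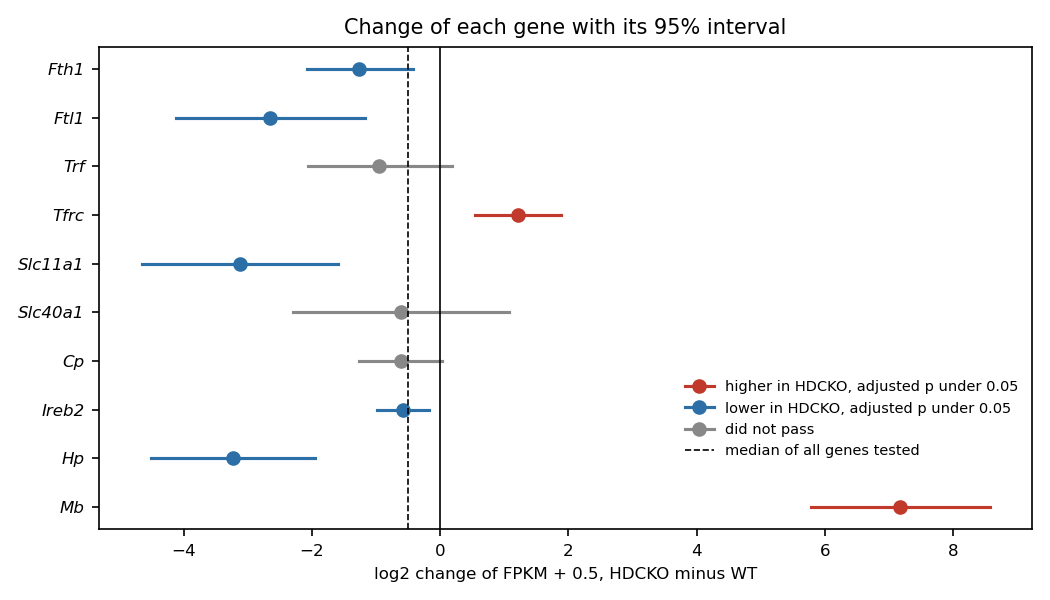
Log2 change of FPKM + 0.5, HDCKO minus WT, for each gene with its 95% interval from limma. Mb lies at 7.17 and Tfrc at 1.21, Hp, Slc11a1 and Ftl1 lie between -3.23 and -2.65, and the dashed line marks the median of all genes tested at -0.50.

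The Tfrc and Fth1 transcripts were also compared within each library. Both carry hairpins shown above, but the one in the 5′ region of Fth1 acts on translation, which transcript levels do not measure. The part of the hairpins in this ratio was not tested. The log2 ratio of Tfrc to Fth1 (each FPKM + 0.5) was -5.49, -6.64 and -6.43 in HDCKO mice 1, 2 and 3, against -8.43, -9.45 and -8.08 in WT mice 1, 2 and 3. All HDCKO ratios were above all WT ratios, although Fth1 stayed the more abundant transcript in each library. The difference was 2.47 on the log2 scale (exact two-sided permutation test over the 6 libraries, p = 0.1, the smallest that 3 against 3 can give). After quantile normalization, which was not run on the ratio, the log2 change was 1.62 for Tfrc and -2.29 for Fth1, so the genes lay further apart than on the deposited values.

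The balance of heavy to light ferritin subunits varied more between HDCKO mice than between WT mice. The ratio of Fth1 to Ftl1 FPKM was 5.91, 2.94 and 1.20 in HDCKO mice 1, 2 and 3, against 1.14, 1.22 and 0.821 in WT mice 1, 2 and 3. HDCKO mouse 3 lay within the WT range and the other HDCKO mice lay above it. The mean log2 ratio was 1.46 ± 1.15 in HDCKO mice and 0.07 ± 0.31 in WT mice (SD, n = 3 per group), and the difference of 1.39 did not pass (exact two-sided permutation test, p = 0.2). The difference was 0.84 without HDCKO mouse 1.

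**Figure D3:**
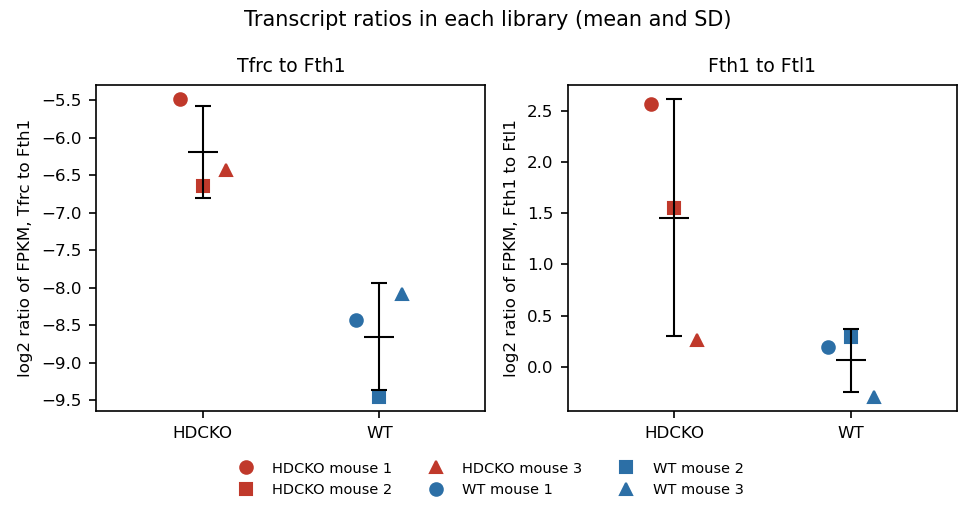
Log2 ratio of Tfrc to Fth1 (left panel, with 0.5 added to each FPKM) and of Fth1 to Ftl1 (right panel) in each HDCKO (red) and WT (blue) library, with the mean and SD in black. The Tfrc to Fth1 ratios do not overlap between groups, while HDCKO mouse 3 lies among the WT mice for Fth1 to Ftl1.

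Neither exporter passed. Slc40a1, the ferroportin channel through which iron leaves cells, had 7.36, 12.3 and 10.1 FPKM in HDCKO mice 1, 2 and 3, against 7.70, 48.6 and 8.85 FPKM in WT mice 1, 2 and 3. WT mouse 2 stood apart from all 5 other mice, which overlapped. The log2 change was -0.61 (95% interval -2.29 to 1.08, adjusted p = 0.468), and without WT mouse 2 it was 0.22 (adjusted p = 0.485). WT mouse 2 also had the highest Fth1, Ftl1 and Slc11a1 and the highest neutrophil markers of the 6 mice. For Slc40a1 these data therefore give no direction.

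Cp, the ferroxidase that loads exported iron onto transferrin, had 4.99, 9.83 and 8.74 FPKM in HDCKO mice 1, 2 and 3, against 13.2, 12.1 and 10.6 FPKM in WT mice 1, 2 and 3. The groups did not overlap, yet HDCKO mouse 2 and WT mouse 3 were close. The log2 change was -0.62 (SE 0.26, 95% interval -1.26 to 0.02, adjusted p = 0.0802), which is near the median of all genes at -0.50. It passed only with sample weights (log2 change -0.29, adjusted p = 0.0272).

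Ireb2 encodes iron regulatory protein 2, which binds the hairpins and is itself removed when iron is plentiful. It had 6.90, 7.49 and 9.92 FPKM in HDCKO mice 1, 2 and 3, against 11.7, 12.6 and 12.5 FPKM in WT mice 1, 2 and 3. Every HDCKO value was below every WT value, and the WT mice were close together. The log2 change of -0.58 (SE 0.17, adjusted p = 0.0270) differed from the median of all genes by -0.09, so Ireb2 moved as a typical gene did. The call was lost with median-of-ratios scaling (log2 change -0.08, adjusted p = 0.587), after quantile normalization (-0.13, adjusted p = 0.343) and with fibre and mitochondrial transcripts left out of the total (-0.26, adjusted p = 0.165). It was also lost without HDCKO mouse 1 (adjusted p = 0.0620), HDCKO mouse 2 (0.0958), WT mouse 1 (0.0724), WT mouse 2 (0.0805) or WT mouse 3 (0.0858).

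Hp and Slc11a1 fell most of the 10 genes on the deposited values, and their order changed with the pseudocount. Haptoglobin binds haemoglobin freed from red cells and delivers it to the macrophage receptor Cd163. Hp had 62.9, 258 and 136 FPKM in HDCKO mice 1, 2 and 3, against 1648, 1116 and 1008 FPKM in WT mice 1, 2 and 3. The lowest WT value was well above the highest HDCKO value. The mean was 152 ± 98.7 FPKM in HDCKO mice and 1257 ± 343 FPKM in WT mice (SD, n = 3 per group), or 12.1% of WT, with a log2 change of -3.23 (SE 0.53, 95% interval -4.51 to -1.95, adjusted p = 0.00498). Hp passed in all 15 other settings tried, with a log2 change from -3.72 to -2.34.

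Haptoglobin is made by the liver and is also known from neutrophils and fat. Neutrophil markers summed to 33.1, 76.8 and 68.6 FPKM in HDCKO mice 1, 2 and 3, against 4006, 14597 and 2512 FPKM in WT mice 1, 2 and 3. Adipocyte markers summed to 632, 2543 and 1507 FPKM in HDCKO mice 1, 2 and 3, against 2470, 1628 and 1143 FPKM in WT mice 1, 2 and 3. The order of the mice within a group was that of Hp for the adipocyte sum in both groups, and for the neutrophil sum in HDCKO but not in WT. Fabp4 made up most of the adipocyte sum, at 506, 1836 and 1192 FPKM in HDCKO mice 1, 2 and 3. In WT mice 1, 2 and 3 Fabp4 had 2154, 1418 and 973 FPKM. Adipoq and Lep in WT, and Plin4 and Lep in HDCKO, stood in another order than Hp, while the other adipocyte markers kept it. Between the groups, 1 of 8 adipocyte markers was higher in HDCKO and 0 lower by limma, with the same counts at an unadjusted p under 0.05 (median log2 change 0.32). Alb, the defining transcript of hepatocytes, had 0.564, 2.86 and 2.11 FPKM in HDCKO mice 1, 2 and 3, against 6.34, 13.1 and 8.31 FPKM in WT mice 1, 2 and 3. The part of these cell types in the fall of Hp was not tested.

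Mb showed the largest change of the 10 genes. Myoglobin holds oxygen in muscle fibres through its haem group. Mb had 2109, 1377 and 661 FPKM in HDCKO mice 1, 2 and 3, against 13.2, 10.1 and 3.90 FPKM in WT mice 1, 2 and 3. The groups lay far apart, and in each group mouse 1 was highest and mouse 3 lowest. The mean was 1382 ± 724 FPKM in HDCKO and 9.07 ± 4.75 FPKM in WT mice (SD, n = 3 per group), a 152-fold higher level, with a log2 change of 7.17 (SE 0.57, 95% interval 5.78 to 8.57, adjusted p = 0.000496). Fibre markers moved with it and stood in the same order of mice, at 76746.5, 66345 and 42726 FPKM summed in HDCKO mice 1, 2 and 3, against 1432, 444 and 376 FPKM in WT mice 1, 2 and 3. Whether Mb changed per fibre was not tested. By level, Mb ranked 22, 31 and 68 among all genes in HDCKO mice 1, 2 and 3, against 4586, 5642 and 8792 in WT mice 1, 2 and 3.

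How far these changes depend on scaling differed between the genes. Of all calls in the table, those higher in HDCKO were 29.5% under the deposited scaling, 50.5% under median-of-ratios scaling, 43.8% after quantile normalization and 46.9% with fibre and mitochondrial transcripts left out of the total. The 2 higher and 5 lower of the 10 genes became 2 higher and 3 lower with median-of-ratios scaling and with fibre and mitochondrial transcripts left out of the total, and 2 higher and 4 lower after quantile normalization. Tfrc, Slc11a1, Hp and Mb passed in every setting, and Ftl1 in every setting but the one without a filter. The 10 genes rest on ample reads, the lowest value being Slc11a1 in HDCKO mouse 1 at an estimated 130 fragments.

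**Figure D4:**
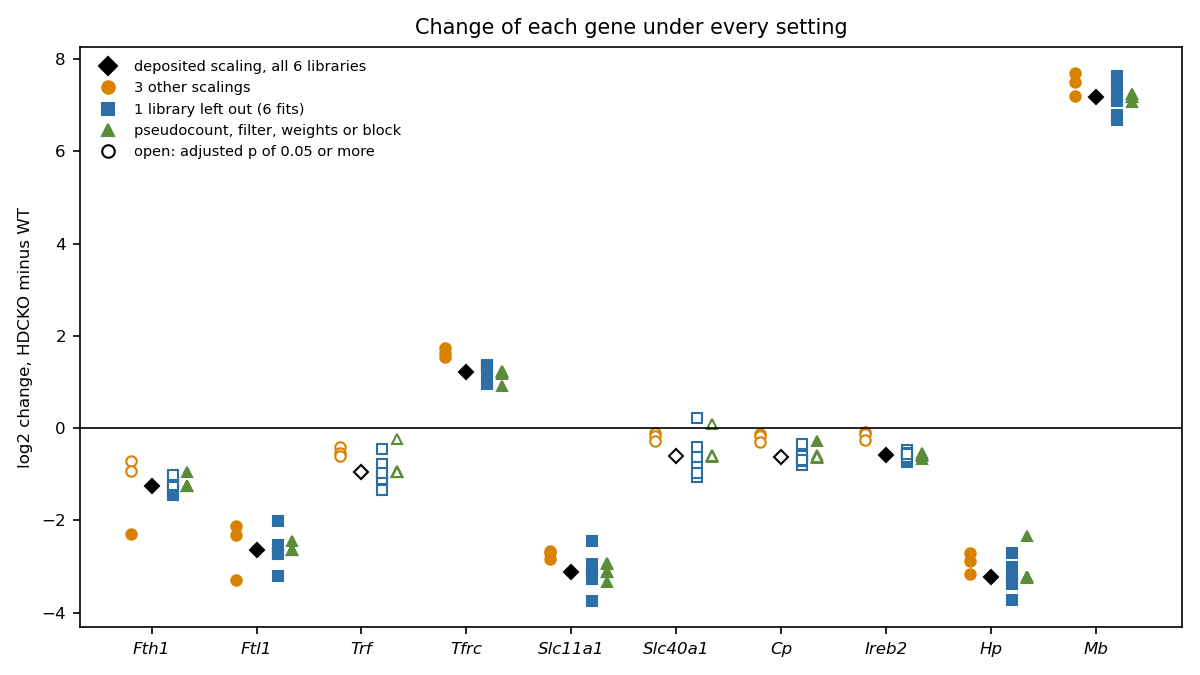
Log2 change, HDCKO minus WT, of each gene on the deposited values (black), under 3 other scalings (orange), with 1 library left out (blue) and with another pseudocount, filter, weighting or a replicate block (green). Open symbols did not pass, and the Fth1, Ireb2 and Slc40a1 columns show where a call or a direction depends on the setting.

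The rest of the iron and haem pathway was read from a list of 67 further genes found in the table, of which 57 passed the filter. Of these, 13 were higher and 26 lower in HDCKO and 18 did not pass, with a median log2 change of -0.53, close to the -0.50 of all genes. The shares, 22.8% higher and 45.6% lower, are near the 17.8% and 42.6% of all genes tested. With median-of-ratios scaling 16 were higher and 16 lower, where 50.5% of all calls were higher. The plot of the other iron and haem genes by role gives each value, and no test compared the roles.

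Among genes of haem breakdown, Hmox1 had the lowest level in HDCKO relative to WT. Hmox1, the inducible haem oxygenase that opens the haem ring and frees its iron, had 11.9, 63.8 and 105 FPKM in HDCKO mice 1, 2 and 3, against 1231, 930 and 816 FPKM in WT mice 1, 2 and 3. No HDCKO value came near a WT value, and the log2 change was -4.48 (SE 0.77, adjusted p = 0.00597). Slc48a1, which brings haem out of the lysosome, fell by 1.26 and Blvrb, a biliverdin reductase, by 1.94 on the log2 scale. The Blvrb call was lost without HDCKO mouse 2 (adjusted p = 0.0513), WT mouse 1 (0.0506), WT mouse 2 (0.0622) or WT mouse 3 (0.0586). Pgrmc1, which encodes a haem-binding membrane protein, fell by 1.16, a call lost without WT mouse 3 (adjusted p = 0.0509). In this role 5 of 9 genes tested were lower (55.6%, against 42.6% of all genes tested) and 1 was higher, and 3 were lower without HDCKO mouse 2, WT mouse 1 or WT mouse 2 and 2 without WT mouse 3. Of the 3 scavenging genes, Hpx passed the filter on low values only through the WT mice, so no count is read from them. Cd163, the macrophage receptor for haptoglobin bound to haemoglobin, had 18.1 ± 10.2 FPKM in HDCKO and 91.0 ± 47.6 FPKM in WT (log2 change -2.37, adjusted p = 0.0219). Its call was lost without WT mouse 1 (adjusted p = 0.0691) or WT mouse 3 (0.0689). Lrp1, a receptor for haem bound to haemopexin, fell by 2.20. Hpx, haemopexin itself, averaged 0.243 FPKM in HDCKO and 2.37 FPKM in WT, and no result is read from its change.

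Iron uptake genes other than Tfrc that could be tested were lower or did not pass. Of 8 tested, 6 were lower and 0 higher by limma, with the same counts at an unadjusted p under 0.05. Of these, 2 (Steap2 and Slc39a8) passed the filter on low values only through the WT mice, so no share is drawn from the count. Without a filter 1 gene of this role was higher and 8 lower, where 10.6% and 21.1% of all genes tested were. Steap1, of a family that reduces iron and copper, fell by 4.26 on the log2 scale. Steap2, of the same family, averaged 0.477 FPKM in HDCKO and 6.37 FPKM in WT, and no result is read from its change. Slc39a14, which carries iron not bound to transferrin, had 3.76 ± 1.07 FPKM in HDCKO and 33.9 ± 4.93 FPKM in WT (log2 change -3.04, adjusted p = 0.000426). Lcn2, a neutrophil protein that withholds iron from bacteria, had 12.4 ± 4.85 FPKM in HDCKO and 296 ± 167 FPKM in WT (log2 change -4.45, adjusted p = 0.00159). Slc11a2, the transporter that moves iron out of endosomes after Tfrc uptake, had a log2 change of -0.17 (adjusted p = 0.363).

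Among sensors and storage partners, Fbxl5, the ligase adaptor that marks iron regulatory proteins for removal, had 8.47, 9.26 and 11.5 FPKM in HDCKO mice 1, 2 and 3, against 79.6, 150 and 77.4 FPKM in WT mice 1, 2 and 3. The groups were widely separated (log2 change -3.27, SE 0.29, adjusted p = 0.000689). Aco1, iron regulatory protein 1, had a log2 change of -0.49 (adjusted p = 0.157) and Ncoa4, the receptor that sends ferritin to the lysosome, of -0.29 (adjusted p = 0.246). The iron chaperones Pcbp1 (-0.77, adjusted p = 0.0154) and Pcbp2 (-0.53, adjusted p = 0.0322) were lower by about as much as a typical gene. With median-of-ratios scaling neither passed, at -0.24 (adjusted p = 0.173) and -0.01 (adjusted p = 0.966). Both also missed the threshold without HDCKO mouse 2 (adjusted p = 0.0695 and 0.102) or WT mouse 1 (0.0542 and 0.0961), WT mouse 2 (0.0508 and 0.0836) or WT mouse 3 (0.0556 and 0.0913), and Pcbp2 without HDCKO mouse 1 (0.0707) or with a replicate block (0.0748).

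In the export and hepcidin group, Hjv stood out. Hjv encodes hemojuvelin, a co-receptor of bone morphogenetic proteins known from skeletal muscle and liver, where it raises hepcidin. It had 235, 173 and 140 FPKM in HDCKO mice 1, 2 and 3, against 2.23, 0.572 and 1.09 FPKM in WT mice 1, 2 and 3. Hjv was high in the mice in which Mb and the fibre markers were high (log2 change 6.74, SE 0.38, adjusted p = 0.00019). Bmp6, a ligand of that pathway, was higher by 0.94 (adjusted p = 0.0262), a call lost without a filter (adjusted p = 0.0524) and without HDCKO mouse 1 (0.0537), HDCKO mouse 2 (0.0904), WT mouse 1 (0.0882) or WT mouse 2 (0.0849) and with a replicate block (0.06). Hamp, hepcidin itself, was near the floor at 0.685 ± 0.655 FPKM in HDCKO and 0.360 ± 0.191 FPKM in WT (adjusted p = 0.607). Hfe (-0.61, adjusted p = 0.164) and the hormone gene Erfe (-0.83, adjusted p = 0.0593) did not pass. Without HDCKO mouse 3 the Hfe value was -0.93 (adjusted p = 0.0250), and without WT mouse 3 the Erfe value was -1.15 (adjusted p = 0.0240). Erfe averaged 0.467 FPKM in HDCKO and 1.33 FPKM in WT. It passed the filter on low values only through the WT mice, so no result is read from its p-values.

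Genes that handle iron in mitochondria were mostly higher. Of 12 genes of mitochondrial iron and iron-sulphur clusters, 7 were higher and 1 lower (58.3% higher, against 17.8% of all genes tested), with 4 higher without HDCKO mouse 2. Nfs1, the enzyme that supplies sulphur to the clusters, had 35.8 ± 4.84 FPKM in HDCKO and 17.4 ± 0.236 FPKM in WT (log2 change 1.02, adjusted p = 0.00356). The assembly gene Isca1 rose by 1.29 on the log2 scale. The gene that was lower, Slc25a37, encodes the mitochondrial iron importer mitoferrin 1, known from red cell precursors (log2 change -1.37, adjusted p = 0.00398). In haem synthesis 3 of 9 genes were higher (33.3%, against 17.8% of all genes tested). Another 4 were lower (44.4%, against 42.6%), which is near the background. With median-of-ratios scaling 5 were higher and 0 lower. The count lower was 1 without HDCKO mouse 2 or WT mouse 3 and 2 without WT mouse 2. The count higher was 5 without HDCKO mouse 3. Alas1, the first enzyme of the pathway outside red cells, rose by 1.39 (adjusted p = 0.00863), and Fech, which inserts iron into the ring, rose by 0.87 (adjusted p = 0.00963). Uros, an enzyme of the middle of the pathway, was higher by 0.68 (adjusted p = 0.0101). Alad, the enzyme of the second step, fell by 0.98 (adjusted p = 0.00385), but with median-of-ratios scaling its log2 change was -0.49 (adjusted p = 0.0537).

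Red cell globins were lower. Hbb-bs, an adult beta globin, had 302, 369 and 144 FPKM in HDCKO mice 1, 2 and 3, against 622, 1748 and 3629 FPKM in WT mice 1, 2 and 3. The groups did not overlap, and the WT mice spread widely. The log2 change was -2.65 (SE 0.70, adjusted p = 0.0204), and the call was lost without WT mouse 2 (adjusted p = 0.0641) or WT mouse 3 (0.0550). With median-of-ratios scaling Hbb-bs missed the threshold too (adjusted p = 0.0565). The alpha globin gene Hba-a2 had a log2 change of -2.82 (adjusted p = 0.0168), lost without WT mouse 2 (adjusted p = 0.0552). Hba-a1 (-2.63) and Hbb-bt (-2.39) passed on the deposited values, but each missed the threshold with median-of-ratios scaling (adjusted p = 0.0659 and 0.0812) and without HDCKO mouse 2 (0.0571 and 0.0611), HDCKO mouse 3 (0.0521 and 0.0579), WT mouse 2 (0.0759 and 0.0818) or WT mouse 3 (0.0640 and 0.0727). These genes come in near-identical copies, so the value of each copy is uncertain. Of 8 erythroid markers, which include these 4 globins, 6 could be tested and 5 were lower (83.3%, against 42.6% of all genes tested). Slc4a1, which did not pass, entered the test only through the WT mice. The 8 markers summed to 270 to 677 FPKM in HDCKO and 1084 to 6783 FPKM in WT. The count lower was 2 without HDCKO mouse 2 or HDCKO mouse 3, 0 without WT mouse 2 and 1 without WT mouse 3. It was 6 without WT mouse 1 and 1 with median-of-ratios scaling. Epb42 was at 0 in HDCKO mice 2 and 3 and in WT mouse 1. The order of the WT mice for red cell transcripts differed from their order for Hp.

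**Figure D5:**
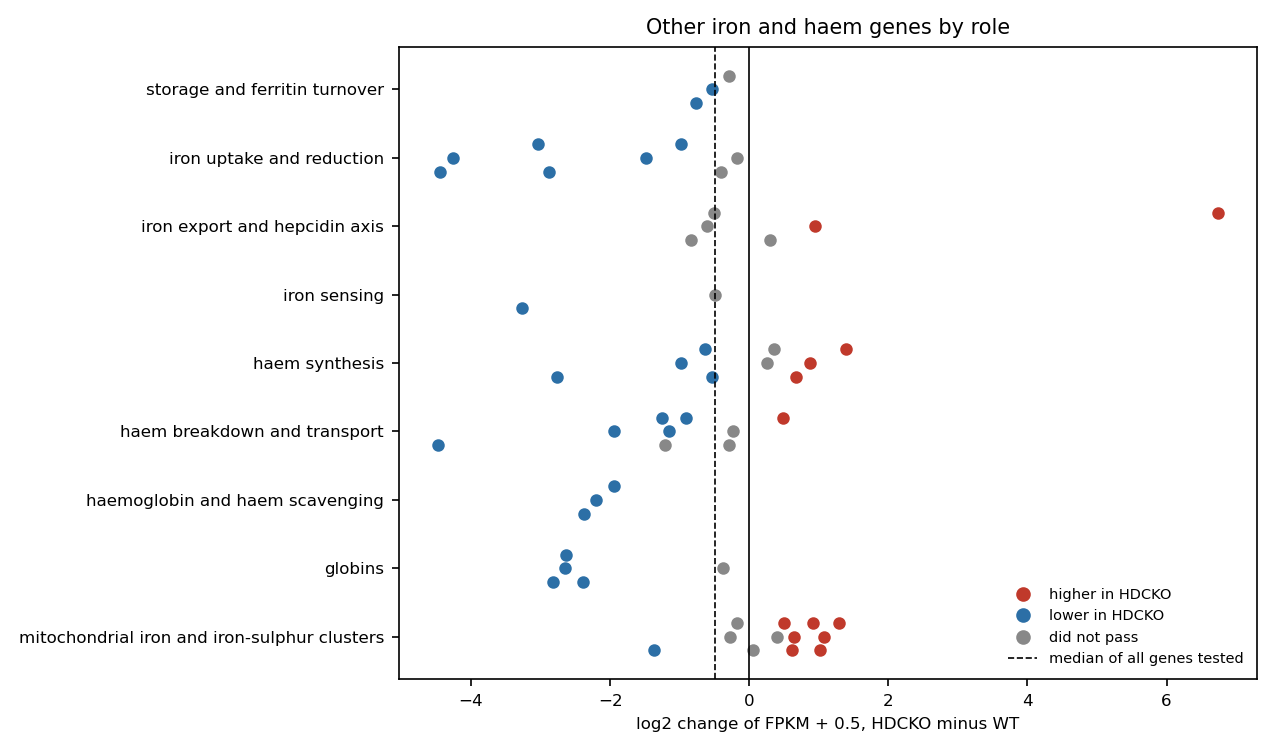
Log2 change of FPKM + 0.5, HDCKO minus WT, of the 57 other iron and haem genes that passed the filter, grouped by role, with the median of all genes at -0.50 as a dashed line. Of the globins, 4 of 5 lie to the left of that line, Hjv stands alone at 6.74, and most genes of mitochondrial iron lie to the right of 0. Hpx, Steap2, Slc39a8 and Erfe passed the filter on low values only through the WT mice, and Hamp only through the HDCKO mice.

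For each of the 10 genes, the 2 most alike genes were taken by the root mean square difference of centred log2 levels over the 6 libraries, among 7987 genes that averaged 5 FPKM or more. Mb was nearest to Pvalb, the calcium buffer of fast fibres (0.292), and Atp2a1, their calcium pump (0.295). Hp was nearest to the matrix protease gene Mmp3 (0.296) and the acute phase inhibitor gene Serpina3n (0.305). Both encode secreted proteins. Ftl1 was nearest to G6pdx, an enzyme that supplies NADPH (0.099), and Slc11a1 to Rab32 (0.087) and the lipid droplet gene Plin2 (0.098). Tfrc was nearest to Trak1 (0.141) and Tead1 (0.148). For Slc40a1 the nearest gene, Sorl1, was at 0.239 and the next, Abtb1, at 0.351. Ireb2 was nearest to Wdr26 (0.025) and Haus7 (0.026). The levels were centred but not scaled, so a distance depends on the size of a gene's changes and is not compared between the 10 genes. These distances describe 6 libraries in 2 groups and carry no test.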

How the data were processed

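The authors deposited 1 table of FPKM values with 1 column per library, converted from counts, per the series' design text. FastQC 0.11.9, HISAT2 2.1.0, HTSeq 0.11.2, STAR 2.7.11b and the build GRCm39 are named in the submitters' processing notes. The sources used here do not say which aligner led to the table, or whether strand was used. The notes also name DESeq2 1.22.2, run by the authors.

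FPKM are not counts, so HDCKO was compared with WT with limma 3.58.1 (trend option, R 4.3.3) on log2(FPKM + 0.5), two-sided and without covariates. Genes averaging under 0.5 FPKM across the 6 libraries were left out. A fold change on this scale is damped near 0. The Benjamini-Hochberg adjustment ran over all genes tested, and the threshold was 0.05. The pipeline was tested on simulated data in which few genes changed, as many up as down. That does not cover the wide and mostly downward change in these data. The limma p-values set the difference between groups against the spread between 3 mice per group. That spread is moderated towards a trend over all genes tested, so it also depends on the filter. Folds and percentages of WT are ratios of mean FPKM. Coordinates and exon lengths come from GENCODE vM39. Fragment numbers are estimates from the smallest FPKM steps and exon lengths, and entered no test. Ratios used exact permutation tests.

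Named genes were the 10 members, Hdc, up to 4 further genes per role by smallest p, and Hmox1, Cd163, Hpx, Slc11a2, Aco1, Ncoa4 and Hamp. The members and lists were chosen with earlier results of these data known. Other scalings, pseudocounts, filters, sample weights, a replicate block and leaving out each library were tried. Ftmt was listed but not analysed here. A mitochondrial gene that the rule named is counted but not reported by name here.

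Beside the marker lists given in the report, 3 of 8 fibroblast (37.5%) and 5 of 8 endothelial markers (62.5%) were lower in HDCKO. Among all genes tested 42.6% were lower, so the fibroblast count is near the background. Schwann cell markers were higher for 3 of 8 (37.5%, against 17.8% of all genes tested). Fibroblast counts were 1 without HDCKO mouse 2, WT mouse 1 or WT mouse 3. Endothelial counts were 2 without WT mouse 1 and 3 without HDCKO mouse 2 or WT mouse 2. Schwann cell counts were 0 without HDCKO mouse 2, WT mouse 1 or WT mouse 3, and 5 without WT mouse 2. With median-of-ratios scaling 6 were higher, where 26.6% of all genes tested were.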

Additional observations from a re-analysis of the deposited data

How the results depend on the processing

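The count of the 10 genes lower in HDCKO was 5 on the deposited values and 3 without a filter, with median-of-ratios scaling or with fibre and mitochondrial transcripts left out of the total, and it ran from 3 to 5 when each library was left out; the count higher was 2 in every setting tried. Of the other iron and haem genes, 26 were lower and 13 higher; with median-of-ratios scaling 16 were lower, and with a library left out 14 to 26 were lower and 8 to 15 higher. Of all genes, 5658 were lower and 2362 higher; the count lower was 3457 with median-of-ratios scaling, 3601 with fibre and mitochondrial transcripts left out of the total and 2507 to 7288 with a library left out. The cause of these shifts was not tested. Directions that reversed belonged to genes that did not pass: Slc40a1 (0.08 with sample weights, and -1.07 to 0.22 with a library left out, the highest being without WT replicate 2), Ncoa4 (0.23 with median-of-ratios scaling, 0.17 after quantile normalization, 0.04 with fibre and mitochondrial transcripts left out of the total), Slc11a2 (0.32, 0.23 and 0.14 in the same 3 settings) and Aco1 (0.02 with median-of-ratios scaling). Hdc passed in all 15 other settings tried, and neither ratio changed direction.

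The mouse numbers are shared by the groups, but nothing in the labels ties mice of the same number together. Deviations of same-numbered libraries from their group means correlated at 0.122, 0.067 and 0.138 across genes, so the numbers were not taken as pairs, and not every library correlated best with its own number. With a replicate block 2081 genes were higher and 5089 lower, the 10 genes gave the same 2 and 5, and 10 and 25 of the other iron genes passed. The block left the ratio differences at 1.39 and 2.47 (exact sign-flip tests, p = 0.25, the smallest that 3 pairs can give).

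With 3 mice per group, small changes such as those of Ireb2 and Cp cannot be told from a shift in scaling.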
